A study of Mus musculus with 54 samples.

Results

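The major urinary protein (Mup) genes and pseudogenes were followed in the liver of male mice that received the plasticizer di-isononyl phthalate (DINP). They were chosen by name, as every entry of the deposited table whose symbol was Mup with a number or Mup-ps with a number. The table held 40 such entries among 20162, namely 22 protein-coding genes and 18 pseudogene entries under 39 symbols, because Mup-ps16 stood on 2 entries.

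Major urinary proteins are small lipocalins that hepatocytes secrete into the blood and that the kidney passes into the urine, where they bind volatile pheromones and release them slowly from scent marks. Adult male mice make far more of them than females, and growth hormone pulses, androgens, thyroid hormone and glucocorticoids are known to raise their transcription in the liver. Some of them also circulate and have been linked to glucose and lipid handling in obese mice. Most of the coding genes are recent tandem copies that are nearly alike, whereas a few at the edges of the cluster, such as Mup3, Mup4 and Mup20, are older and differ more in sequence. Mup20 encodes darcin, the male pheromone protein that attracts females.

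All mice were wild-type C57BL/6J males that were fed a high-fat diet from an age of 8 weeks and were housed singly. Each mouse was given a gelatin pellet every morning for 20 weeks, which held DINP at 1.5 mg/kg bw/d (n = 13), 15 mg/kg bw/d (n = 13) or 150 mg/kg bw/d (n = 14), or no DINP in the control group (n = 14). These are called the low, the middle and the high dose below. The medial liver lobe was taken after perfusion with PBS, and QuantSeq libraries were made from its RNA, which read the 3′ ends of polyadenylated transcripts in the sense direction. No group on a standard diet and no females were part of the data, so that every value below is a level in obese males.

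The values are on the deposited scale, called signal here: TPM rounded to whole numbers and then scaled between mice, with steps of 0.764 to 1.11. They are per transcript length. The table does not keep the number of reads, so the depth behind single values is unknown and no interval for counting error can be given. The summed signal of all genes ran from 747258 to 1076439 per mouse. Of the hepatocyte markers, 5 of 6 were in the table, and their summed signal was 22859 to 45080 in every mouse, whereas no lymphocyte marker reached a mean of 1. A smaller number of hepatocytes and less RNA per hepatocyte cannot be told apart in such bulk samples. Differences are given as log2FC, the log2 fold change on the log2(signal + 1) scale, with its standard error (SE), and adjusted p-values are from limma with Benjamini-Hochberg adjustment over the 11431 genes with a mean signal of at least 1. A differentially expressed gene (DEG) had an adjusted p under 0.05 and a log2FC beyond 0.5.

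All but 1 of the Mup symbols lay on chromosome 4 of GRCm38, between 59956804 and 62150863, and the exception was the processed pseudogene Mup-ps22 on chromosome 11 at 55123695 to 55123937. The first 90 coding bases show how alike the members are. Mup14 is the reference because it was a DEG in 2 comparisons, Mup11 and Mup9 stand for its near copies, and Mup20, Mup3 and Mup4 for the members that differ more. Capitals mark bases that differ from Mup14 in a global alignment or were inserted against it, positions are on GRCm38, and the stretch lies in the first coding exon.
Mup14, chr4:61303800-61303889, minus strand: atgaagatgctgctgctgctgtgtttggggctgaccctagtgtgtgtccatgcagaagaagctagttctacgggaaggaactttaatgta
Mup11, chr4:60662211-60662300, minus strand: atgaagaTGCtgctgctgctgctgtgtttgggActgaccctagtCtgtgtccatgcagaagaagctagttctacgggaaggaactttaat
Mup9, chr4:60421797-60421886, minus strand: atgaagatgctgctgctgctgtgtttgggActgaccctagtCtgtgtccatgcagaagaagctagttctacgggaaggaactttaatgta
Mup20, chr4:62053960-62054049, minus strand: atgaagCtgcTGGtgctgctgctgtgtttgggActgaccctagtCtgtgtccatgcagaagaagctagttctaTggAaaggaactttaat
Mup3, chr4:62087142-62087231, minus strand: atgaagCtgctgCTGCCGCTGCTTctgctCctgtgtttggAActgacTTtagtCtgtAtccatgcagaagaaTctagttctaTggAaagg
Mup4, chr4:59960510-59960599, minus strand: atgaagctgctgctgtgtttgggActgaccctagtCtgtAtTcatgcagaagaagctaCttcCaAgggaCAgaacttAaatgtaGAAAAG
Over the whole coding sequence, Mup11 differed from Mup14 by 3 substitutions and Mup9 by 4, against 49 in Mup20, 73 in Mup3 and 56 in Mup4. Substitutions leave out bases that only one of the sequences has: Mup9 is annotated with 705 coding bases and Mup14 with 540, so that their identity over the alignment was 76.0%, against 98.9% for Mup11, 90.4% for Mup20, 82.9% for Mup3 and 88.5% for Mup4.

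This likeness sets which members can be told apart by reads from the 3′ end. For each coding member, the 100-base windows of the last 500 transcript bases were looked up in the transcripts of all other members. In 16 coding members at least 10% of the windows were found in another Mup transcript, and these are called near-identical. Every window of Mup1, Mup2, Mup10, Mup13, Mup14, Mup15, Mup19 and Mup22 was shared, as were 83.8% of those of Mup16, 71.6% of those of Mup9, 68.1% of those of Mup11 and 30.7% of those of Mup17. The 6 others are called distinct: Mup20 shared 7.5% of its windows, Mup21 6.5% and Mup5 2.7%, and Mup3, Mup4 and Mup6 shared none. The values of single near-identical members are therefore uncertain, since the quantification could divide the same reads among them in more than one way, whereas their sum and the distinct members do not depend on that division to the same degree.

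The regions around the transcription starts were also alike. RefSeq (GRCm38.p6) windows of 250 bases before to 50 bases after the start were found for 14 of the 22 coding members. Those of Mup14 and Mup17 are shown because these near copies were DEGs in different comparisons, and those of Mup4 and Mup3 as the windows of distinct members. Capitals mark the bases of Mup17 that differ from Mup14, and in Mup4 and Mup3 the matches to a searched motif.
Mup14, chr4:61303949-61304248, minus strand: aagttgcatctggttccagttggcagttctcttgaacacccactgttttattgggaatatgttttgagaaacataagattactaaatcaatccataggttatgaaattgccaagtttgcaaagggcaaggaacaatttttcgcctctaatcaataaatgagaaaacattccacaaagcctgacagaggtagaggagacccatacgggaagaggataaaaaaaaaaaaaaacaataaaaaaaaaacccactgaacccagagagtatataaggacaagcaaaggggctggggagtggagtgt
Mup17, chr4:61595783-61596082, minus strand: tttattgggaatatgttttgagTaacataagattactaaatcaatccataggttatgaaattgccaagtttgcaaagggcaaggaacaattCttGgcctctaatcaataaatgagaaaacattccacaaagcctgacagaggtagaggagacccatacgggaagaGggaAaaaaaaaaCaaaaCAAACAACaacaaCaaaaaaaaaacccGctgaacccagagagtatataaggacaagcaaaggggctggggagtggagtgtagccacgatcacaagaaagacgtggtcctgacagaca
Mup4, chr4:59960618-59960917, minus strand: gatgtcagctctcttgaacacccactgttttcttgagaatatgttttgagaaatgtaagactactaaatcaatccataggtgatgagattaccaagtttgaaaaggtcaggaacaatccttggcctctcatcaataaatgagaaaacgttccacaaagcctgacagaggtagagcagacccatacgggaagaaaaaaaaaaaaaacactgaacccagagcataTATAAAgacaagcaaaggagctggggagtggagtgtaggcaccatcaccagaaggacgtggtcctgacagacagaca
Mup3, chr4:62087268-62087567, minus strand: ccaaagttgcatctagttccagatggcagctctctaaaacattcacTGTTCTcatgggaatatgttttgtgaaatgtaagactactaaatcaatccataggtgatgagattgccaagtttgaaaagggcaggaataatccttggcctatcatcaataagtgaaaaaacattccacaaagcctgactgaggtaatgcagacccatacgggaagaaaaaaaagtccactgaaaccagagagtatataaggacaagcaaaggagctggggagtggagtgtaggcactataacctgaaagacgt
In alignments with free ends, the window of Mup17 was 93.9% identical to that of Mup14, that of Mup4 83.7% and that of Mup3 80.3%. The motifs TTCNNNGAA (bound by STAT5), AGAACA (a half-site of the glucocorticoid receptor) and TATAAA were searched on both strands. TTCNNNGAA was in none of the 14 windows and in 8.3% of all 32851 RefSeq windows of this length. AGAACA was in 2 windows, those of Mup3 and Mup21, against 19.0% of all windows, and in Mup3 it lay on the minus strand of the gene from base -204. TATAAA was in those of Mup4 and Mup6 from base -27, against 13.6% of all windows. The search took exact matches only. In the aligned sequence, the windows of Mup14, Mup17 and Mup3 hold TATATAAGG where that of Mup4 holds TATATAAAG. The annotated starts are not placed alike, so that this stretch lies after the start in Mup14 and before it in Mup17, Mup3 and Mup4. The windows therefore do not cover the same bases of each member.

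Mup transcripts were among the abundant ones of these livers. In control mice their summed signal was 9365 in the lowest mouse, 14754 in the median and 20739 in the highest. As a share of all signal of the mouse, the Mup sum ran from 1.17% to 2.18%. Mup20 was the member with the highest mean, at 32.1 ± 13.4% of the Mup sum (SD, n = 54 mice), followed by Mup3 with 17.4 ± 5.99%, Mup11 with 11.4 ± 3.99%, Mup14 with 9.44 ± 4.86% and Mup19 with 6.37 ± 2.35%. The signals of neighbours in this order overlapped among the control mice. Of the 28 members with a mean of at least 1, 16 had a mean over 100, 5 from 10 to 100 and 7 under 10, and 17 were above 0 in every mouse.

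The other 12 members were not tested. They were Mup5, which is known from the salivary gland, and 11 pseudogene entries, each at 0 in 39 to 53 of the 54 mice and with a highest signal of 0.886 to 17.7. Mup5 was listed at 0 in 51 mice and reached 1.01 in the highest. The mean of Mup4, known from the nasal and lacrimal glands, was 1.13, so that it passed the filter only narrowly. By group its mean was 0.693 in the controls, 1.94 at the low, 1.45 at the middle and 0.517 at the high dose. Without the low-dose mice Mup4 would not have been tested, nor would Mup-ps19, whose mean over all mice was 1.00.

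At the low dose the Mup sum had a larger median and a wider range than in control mice. It was 11756 in the lowest mouse, 25118 in the median and 57484 in the highest, and 7 of the 13 mice were above the highest control. The mean was 25400 ± 12983 (SD, n = 13) against 15316 ± 3414 (SD, n = 14), a ratio of 1.66, and the coefficient of variation was 51.1% against 22.3%. At the middle dose the sum ran from 9114 over a median of 17363 to 31644 (ratio of means 1.13), and at the high dose from 11677 over 16899 to 24133 (ratio 1.14). Neither of these groups stood clear of the controls, with 2 of 13 and 4 of 14 mice above the highest control. No p-value is given for the sum, because the members were proposed with results known. When each mouse was left out in turn, the ratio at the low dose stayed between 1.48 and 1.73.

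The near-identical and the distinct members differed in how their sums compared with control. The near-identical sum was 1247, 6531 and 12231 in the lowest, median and highest control mouse and 5302, 14117 and 35459 at the low dose, a ratio of means of 2.09. The distinct sum was 5093, 8002 and 10930 in the controls and 5777, 9883 and 19963 at the low dose, a ratio of 1.23. At the high dose the ratio was 1.43 for the near-identical sum and 0.866 for the distinct sum, and at the middle dose it was 1.12 and 1.14. The pseudogene sum, with Mup-ps17 as its largest entry, had a ratio of 5.42 at the low dose, where 12 of 13 mice were above the highest control. Mup-ps17 alone had a mean of 714 out of 826 at the low dose and of 70.9 out of 152 in the controls. The pseudogene ratio therefore rests largely on Mup-ps17. The differences between these ratios were not tested.

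**Figure D1:**
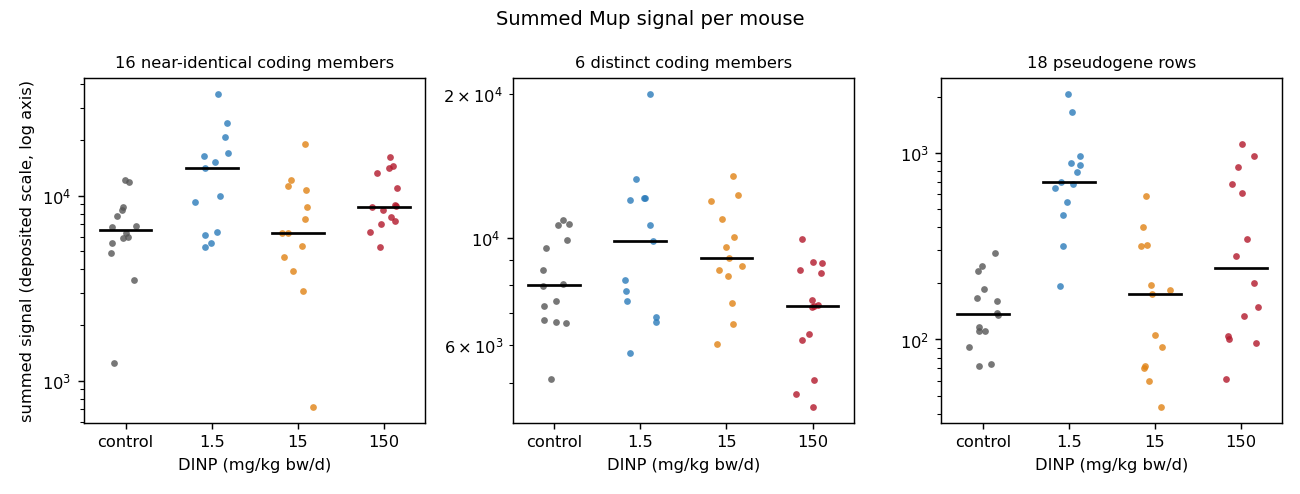
Summed signal per mouse (log axis) of the 16 near-identical coding members, the 6 distinct coding members and the 18 pseudogene entries, by DINP dose (mg/kg bw/d), with 1 point per mouse and a line at the median. In the near-identical panel the median is 6531 in the controls and 14117 at the low dose, and 7 of 13 mice there are above the highest control.

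The summed signal of all genes moved with the Mup sum within the low-dose group. The mice with replicate numbers 4, 9, 10 and 13 had the lowest total signals of that group (849922 to 885178) and its lowest Mup sums (11756 to 14400), and Spearman's rho between total and Mup sum was 0.88 (n = 13). In the other groups rho was 0.36 in the controls (n = 14), 0.30 at the middle dose (n = 13) and 0.27 at the high dose (n = 14). These points share the library and its scaling, and the Mup signal is itself part of the total. As a share of all signal, the Mup sum at the low dose was 1.33% to 5.71%, with a median of 2.63% against 1.54% in the controls. With the mice scaled to equal totals, the ratio of the mean Mup sum at the low dose to control was 1.63. The part of the total signal in the result was not tested further.

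In 3 mice Mup20 made up most of the Mup sum: control replicate 8 (80.4%), control replicate 9 (69.5%) and replicate 7 at the middle dose (83.4%). Their near-identical sums were 1247, 3501 and 720, while their Mup20 signals, 7534, 10160 and 7604, were high. All 3 had total signals at the low end, 747258, 857726 and 849928. Without these mice, a choice made after the data were seen, the ratio of the Mup sum to control was 1.60 at the low dose, the same 2 members were DEGs there, and between the high and the middle dose Mup-ps17 was no longer a DEG (adjusted p = 0.0511) while Mup3 and Mup10 became DEGs. Mup20 also became one between the high and the low dose.

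**Figure D2:**
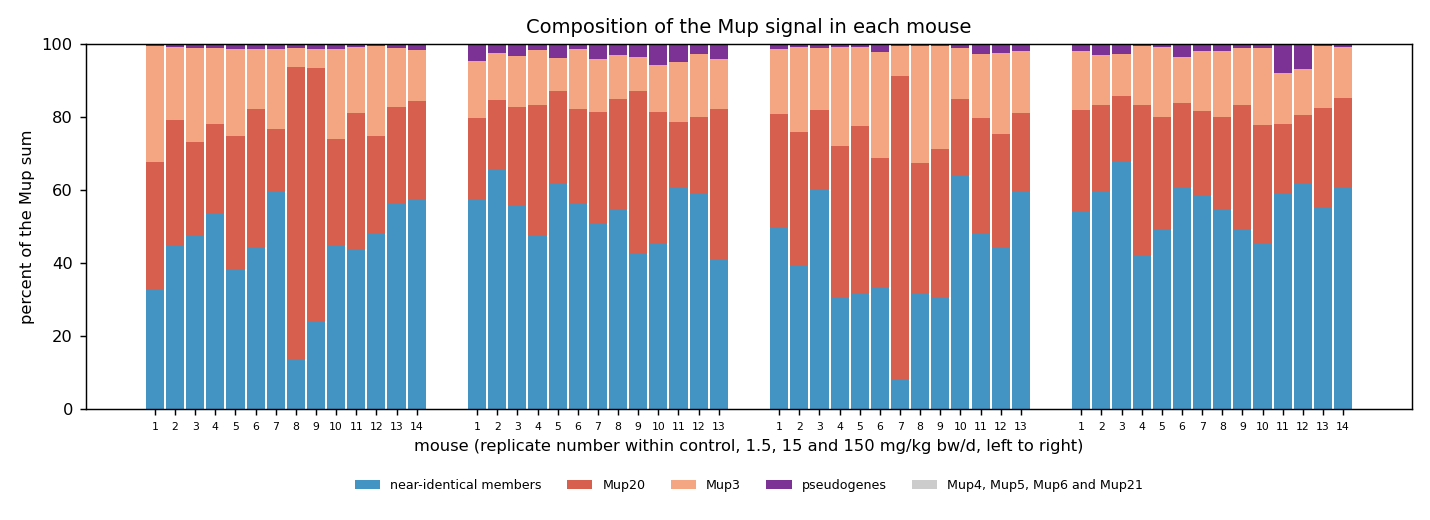
Stacked shares of the Mup sum (percent) in each of the 54 mice, ordered by dose group and replicate number, for the near-identical members, Mup20, Mup3, the pseudogenes and the remaining distinct members. Near-identical members make up 13.3% to 59.8% in the controls and 41.0% to 65.5% at the low dose, and control replicate 8 and replicate 7 at the middle dose are mostly Mup20.

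At the low dose, 2 of the 28 tested members were upregulated DEGs, Mup14 and Mup-ps17, and none was downregulated, against 0.201% of all tested genes upregulated and 0.166% downregulated. Before adjustment, 12 members had p under 0.05, against 12.3% of all tested genes, and the Wilcoxon test called the same 2. Of the 28 members, 26 had a log2FC above 0, where 50.7% of all tested genes did, and their median log2FC was 0.69 against 0.00. The members are not separate observations, since near-identical ones divide shared reads and all were read in the same mice. For 19 of the 28 the highest mouse was in the low-dose group. This limit applies to the counts of direction in the other comparisons as well. The log2FC was above 0 for 14 of 16 near-identical members (median 0.78), all 5 tested distinct members (median 0.61) and all 7 tested pseudogenes (median 0.25). Without the low-dose mice, neither Mup4 (log2FC 0.76) nor Mup-ps19 (0.13) would have been tested. Their place in these counts is therefore not independent of the filter.

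Mup14 encodes one of the secreted near-identical proteins. Its signal was 192, 1124 and 2296 in the lowest, median and highest control mouse, and 1478, 2488 and 6553 at the low dose. It was 321, 1461 and 2429 at the middle dose, and 274, 1896 and 3780 at the high dose. At the low dose 8 of 13 mice were above the highest control, and no mouse was under 1478. The log2FC of the low dose against control was 1.31 (SE 0.32, adjusted p = 0.032, limma). The adjusted p was 0.051 without control replicate 10, and 0.053 and 0.068 without replicates 5 and 8 of the dose group, with log2FC from 1.19 to 1.29.

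Mup-ps17 is annotated as an unprocessed pseudogene on the minus strand of chromosome 4 at 61857321 to 61857876, next to Mup5. Its signal was 8.31, 44.3 and 188 in the lowest, median and highest control mouse, and 69.8, 615 and 1869 at the low dose, where 12 of 13 mice were above the highest control. At the middle dose it was 0, 13.6 and 472, and at the high dose 10.4, 146 and 970. By the median it was highest at the low dose and lowest at the middle dose. The log2FC of the low dose against control was 3.44 (SE 0.79, adjusted p = 0.0167, limma), and it remained a DEG whichever of the 27 mice was left out. Its annotated transcript has only 218 bases against 925 in Mup14, so that the same number of reads gives a larger signal per length, and 33.6% of its 100-base windows were also in another Mup transcript.

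The 2 members with the highest means, Mup20 and Mup3, were not DEGs at any dose against control. Mup20 was 2748, 5107 and 10160 in the lowest, median and highest control, and 3964, 6256 and 14596 at the low dose (log2FC 0.35, SE 0.18, adjusted p = 0.41). At the middle dose it was 3301, 5845 and 7604, and at the high dose 2686, 4431 and 7187, and all groups overlapped widely. Mup3 was 489, 3148 and 4728 in the controls, 1344, 3788 and 5699 at the low dose, 738, 3473 and 6364 at the middle dose and 1748, 2750 and 3200 at the high dose. At the high dose its coefficient of variation was 16.7% against 42.2% in the controls. This difference in spread was not tested.

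Mup11 and Mup19, the abundant near copies of Mup14, had larger log2FC at the low dose but also wide ranges. Mup11 was 192, 1500 and 2765 in the lowest, median and highest control and 793, 2982 and 12347 at the low dose, with 7 of 13 mice above the highest control (log2FC 1.03, SE 0.40, adjusted p = 0.24). Its signal was 92.2, 1760 and 5036 at the middle dose and 1256, 2126 and 4087 at the high dose. Mup19 was 92.5, 1007 and 1843 in the controls, and 317, 2030 and 2998 at the low dose, again with 7 of 13 above the highest control (log2FC 0.73, SE 0.41, adjusted p = 0.47). Its values were 52.3, 906 and 2154 at the middle dose and 761, 1223 and 2282 at the high dose. In both members some mice of the low dose stayed within the control range, and neither passed the test. The largest log2FC of a coding member at this dose was 1.45 in Mup7 (SE 0.63, adjusted p = 0.30).

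**Figure D3:**
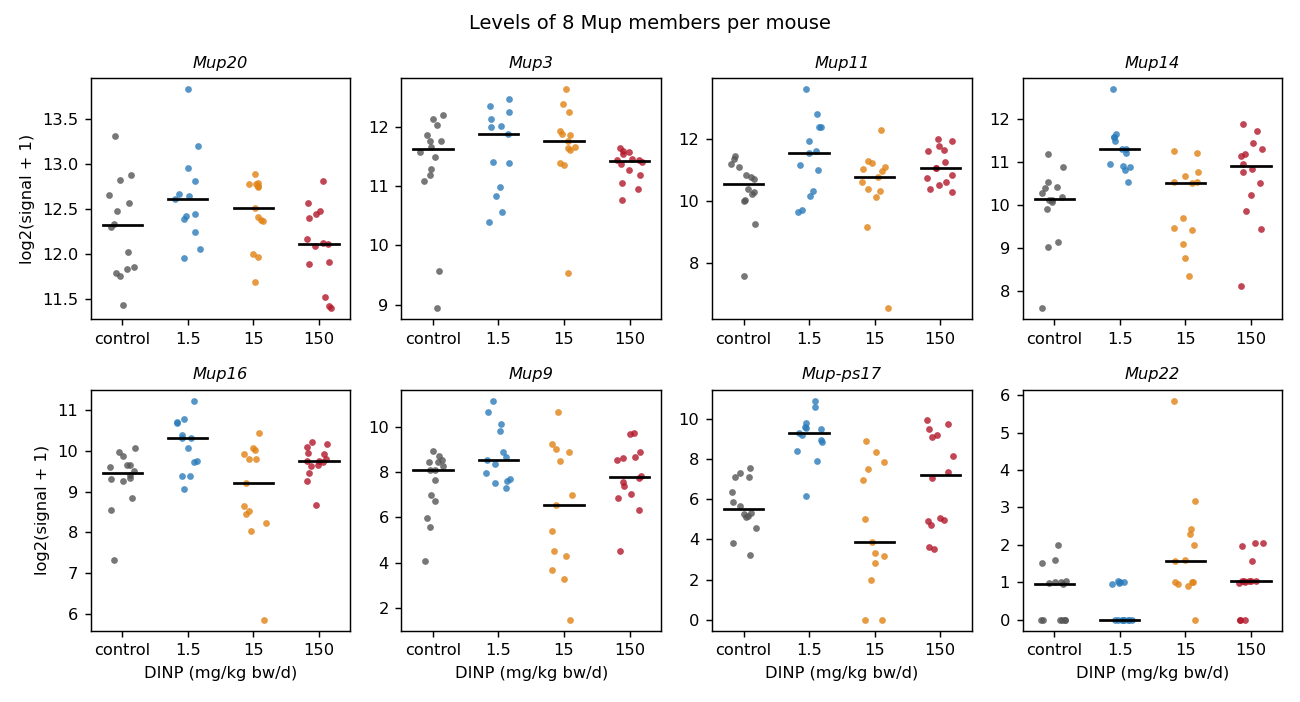
Levels per mouse, as log2(signal + 1), of Mup20, Mup3, Mup11, Mup14, Mup16, Mup9, Mup-ps17 and Mup22 by DINP dose (mg/kg bw/d), with 1 point per mouse and a line at the median. In Mup-ps17, 12 of 13 mice at the low dose are above the highest control, and in Mup20 the groups overlap.

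At the middle dose, Mup22 was the 1 upregulated DEG of 28 members and none was downregulated, where 1.85% of all tested genes were upregulated and 1.86% downregulated. Only 1 member had p under 0.05 before adjustment, against 27.0% of all tested genes, and the Wilcoxon test gave 0 DEGs among the members. A log2FC above 0 was found for 17 members and below 0 for 11, with a median of 0.05, and with the mice scaled to equal totals, to the non-Mup genes or by quantiles the split was 14 to 14.

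Mup22 is a near-identical member with little signal. Its mean was 0.847 in the controls, 0.383 at the low dose, 6.50 at the middle dose and 1.32 at the high dose. Mup22 therefore reached the mean of 1 needed for testing only through the middle dose. Its calls there are not independent of the values that admitted it. It was 0, 0.947 and 3.01 in the lowest, median and highest control, 0, 0 and 1.05 at the low dose, 0, 1.95 and 56.4 at the middle dose, and 0, 1.05 and 3.18 at the high dose. A single mouse, replicate 8 at the middle dose, had the value of 56.4, and 4 of 13 mice of its group were above the highest control. The log2FC against control was 1.11 (SE 0.34, adjusted p = 0.021, limma), and without that mouse the log2FC was 0.78 (adjusted p = 0.052).

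Cell type markers were read at the same dose, where 14.2% of all tested genes had an adjusted p under 0.05. Of 15 hepatocyte markers, periportal and pericentral ones included, 2 passed, namely Ttr (log2FC 0.42) and the periportal Hsd17b13 (0.39), while Alb had a log2FC of 0.07, Apoa1 of -0.13 and Apob of -0.03. Of 18 markers of other cells 2 passed, both lower, namely Csf1r, 1 of 6 markers of Kupffer cells and macrophages (-0.60), and Pecam1, 1 of 5 of sinusoidal endothelium (-0.52). The summed macrophage markers were 53.0 to 157 in the controls and 54.6 to 109 at the middle dose, and the endothelial ones 67.5 to 91.9 and 53.2 to 90.02. At the low dose 0 of the 15 hepatocyte markers and 0 of the 18 others had an adjusted p under 0.05 in limma, against 1.2% of all tested genes. Before adjustment 3 hepatocyte markers were higher and 1 lower, and 1 of the others was higher and 2 lower, against 12.3% of all tested genes. The part of these cells in the Mup values was not tested.

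At the high dose, 0 of the 28 members were DEGs by limma, where 0.647% of all tested genes were upregulated and 0.192% downregulated. Before adjustment 3 members had p under 0.05, against 14.0% of all tested genes, and the Wilcoxon test gave 0 DEGs as well. A log2FC above 0 was seen for 23 members and below 0 for 5 (median 0.34), and all 16 near-identical members were on the upper side (median 0.56, from 0.09 to 1.09). With the mice scaled to equal totals or to the non-Mup genes, 19 members were above 0 and 9 below, and Mup10 was the 1 near-identical member below. Of the 5 tested distinct members 3 were above 0 and 2, Mup20 and Mup4, below (median 0.01), and with equal totals 1 was above and 4 were below. Mup14 had a log2FC of 0.69 (adjusted p = 0.30), Mup15 of 1.09 (adjusted p = 0.38) and Mup17 of 0.95 (adjusted p = 0.29).

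**Figure D4:**
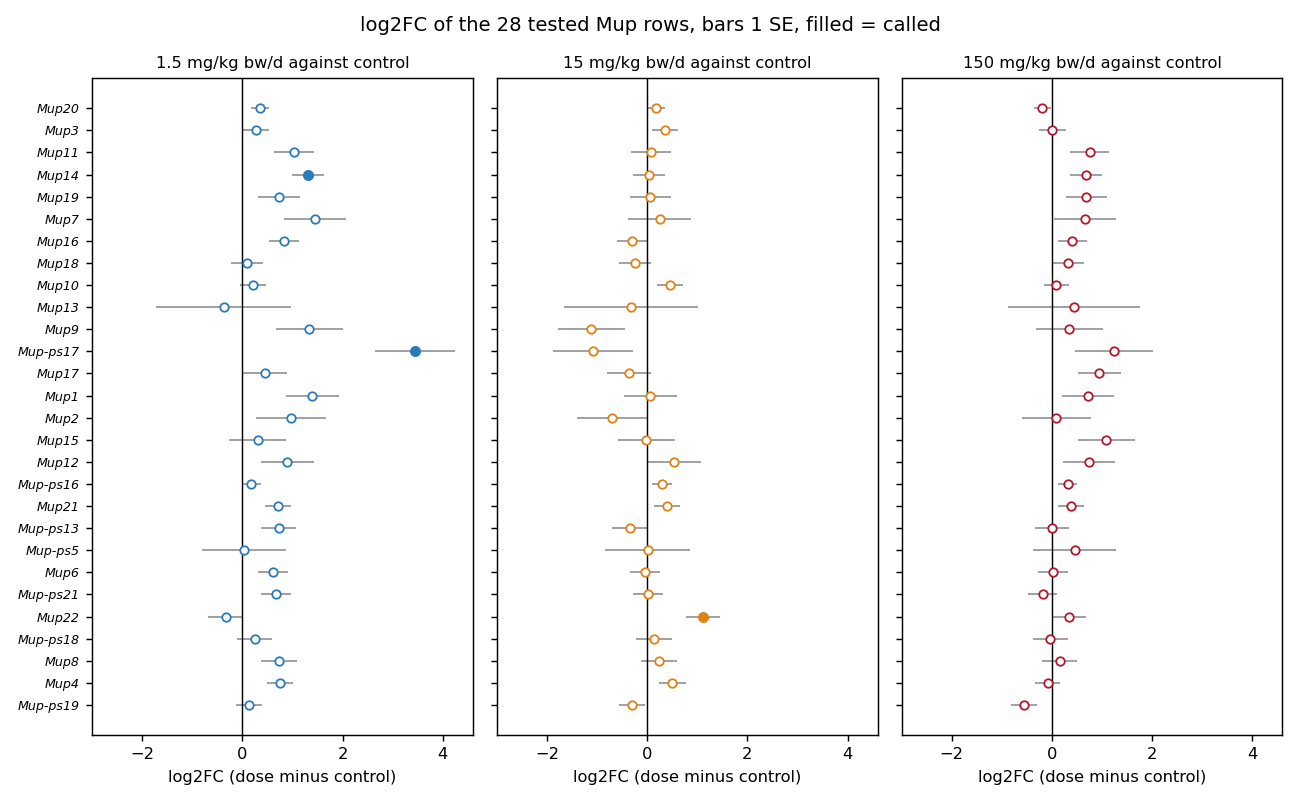
log2FC of each dose against control for the 28 tested Mup entries, ordered by mean signal from the top, with bars of 1 SE, and filled points for DEGs. Most points lie right of 0 at the low dose (26 of 28) and at the high dose (23 of 28), and only Mup14, Mup-ps17 and, at the middle dose, Mup22 are filled. The points are not separate observations, since members share mice and, for near copies, reads.

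The doses were also compared with each other, because a DEG at one dose and not at another is not by itself a difference between them. Between the middle and the low dose, 5 members were lower and 1 was higher at the middle dose, where 3.4% and 3.74% of all tested genes were. Those lower were Mup14 (log2FC -1.28, SE 0.33, adjusted p = 0.00359), Mup16 (-1.14, SE 0.30, adjusted p = 0.00489), Mup9 (-2.45, SE 0.69, adjusted p = 0.00747), Mup-ps17 (-4.52, SE 0.80, adjusted p = 5.6e-05) and Mup-ps13 (-1.07, SE 0.35, adjusted p = 0.0234). Mup22, which was tested only because of its signal at the middle dose, was higher (1.45, SE 0.35, adjusted p = 0.00189, limma). Of the 28 tested members 5 had a log2FC above 0 and 23 below 0, with a median of -0.47, where 48.5% of all tested genes were above 0, with a median of -0.01. Among those below 0 were Mup4 and Mup-ps19, which would not have been tested without the low-dose mice. Before adjustment 11 members had p under 0.05, against 33.6% of all tested genes. These comparisons share the mice of each dose with those against control, so that they are not independent of them.

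Mup16, a secreted near-identical member, was 531, 1273 and 2392 in the lowest, median and highest mouse at the low dose and 56.7, 594 and 1398 at the middle dose. In the controls it was 158, 701 and 1071, between the other groups by the median, and 8 of 13 mice at the low dose were above the highest control. Mup9 was 159, 375 and 2264 at the low dose and 1.77, 93.4 and 1638 at the middle dose, and the group ranges overlapped although the medians lay far apart. In the controls Mup9 was 15.6, 271 and 488, and at the high dose 21.6, 222 and 847. The pseudogene Mup-ps13 was 10.7, 26.8 and 103 at the low dose and 1.77, 13.6 and 53.2 at the middle dose. In the controls Mup-ps13 was 1.53, 18.9 and 33.2, and at the high dose 6.23, 19.1 and 27.2. Without replicate 5 at the low dose, or replicate 7 or 8 at the middle dose, Mup-ps13 was no longer a DEG (adjusted p from 0.0519 to 0.0564). The other 5 were DEGs in all 26 leave-one-out fits, but the Wilcoxon test called only Mup14, Mup-ps17 and Mup22. Its adjusted p was 0.087 for Mup16, 0.17 for Mup9 and 0.15 for Mup-ps13. With array weights in limma, Mup9 (adjusted p = 0.080) and Mup-ps13 (adjusted p = 0.13) were not DEGs.

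Between the high and the low dose, 1 member was lower and none was higher, against 0.691% and 0.945% of all tested genes. This was Mup4, whose signal was 0, 1.01 and 6.26 in the lowest, median and highest mouse at the low dose and 0, 0.492 and 1.07 at the high dose. The log2FC was -0.84 (SE 0.26, adjusted p = 0.0489, limma). These values are 1 to a few steps of the table, whose step is about 1 signal unit. Mup4 was tested only because of its signal at the low dose, so that this call is not independent of the filter. The call was lost in 14 of the 27 leave-one-out fits (adjusted p from 0.0525 to 0.113), namely without replicate 2, 3, 5, 6, 8, 11 or 12 at the low dose or any of replicates 8 to 14 at the high dose. The Wilcoxon test gave 0 DEGs among the members here, and 6 members had p under 0.05 in limma before adjustment, against 18.0% of all tested genes. Mup20 was close to the threshold (log2FC -0.54, SE 0.18, adjusted p = 0.0604), and it was a DEG with quantiles, with equal totals, with the non-Mup genes as the scale, with a minimum mean of 5, with a replicate block and without the 3 mice rich in Mup20.

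Between the high and the middle dose, 2 members were higher at the high dose and none was lower, against 3.44% and 3.29% of all tested genes. They were Mup-ps17 (log2FC 2.32, SE 0.79, adjusted p = 0.0298) and Mup17 (1.30, SE 0.44, adjusted p = 0.0288), and 8 members had p under 0.05 before adjustment, against 32.3% of all tested genes. Mup17, whose 3′ end is the least shared of the near-identical members, was 8.86, 132 and 442 in the lowest, median and highest mouse at the middle dose, and 116, 323 and 611 at the high dose. In the controls it was 18.3, 162 and 676, so that the groups overlapped. Mup17 lost its call without replicate 7 (log2FC 1.00, adjusted p = 0.077) or 8 (1.18, adjusted p = 0.0607) at the middle dose. Mup-ps17 lost it in 9 of 27 fits, without replicate 5, 6, 8 or 9 at the middle dose or 2, 3, 6, 11 or 12 at the high dose, with adjusted p from 0.0508 to 0.0762. With the Wilcoxon test neither was a DEG (adjusted p = 0.057 for Mup17 and 0.146 for Mup-ps17).

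The members did not all vary together between mice. Spearman's rho was computed over the 54 mice after the group means were subtracted on the log2 scale, and is given as a description, since members of a mouse share the library, its scaling and, for near copies, their reads. Between near-identical members it was -0.13 to 0.93 (median 0.52, 120 pairs), between distinct members 0.17 to 0.69 (median 0.40, 10 pairs) and between the kinds -0.31 to 0.82 (median 0.38, 80 pairs). Mup7 (0.92), Mup11 (0.91), Mup1 (0.87) and Mup19 (0.86) followed the Mup sum most closely. Mup14 (0.47) and Mup20 (0.48) followed it less, and rho between Mup14 and Mup20 was -0.01. Mup18 (0.27) and the pseudogene Mup-ps16 (-0.33) were among the members that followed it least. Mup11, Mup19, Mup14 and Mup20 are parts of the sum with large shares, which raises their rho with it.

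Genes outside the cluster varied with the Mup sum from mouse to mouse as well. In each mouse they share the library and its scaling with the Mup sum, and rho was not computed on equal totals. The 10 genes with the highest rho were Serpina3k (0.86), Hsd3b5 (0.85), C8b (0.82), Adh6-ps1 (0.82), Slco1a1 (0.81), Cyp7b1 (0.80), Egfr (0.79), Cyp1a2 (0.79), Ttc39c (0.79) and Cyp2c23 (0.78). Serpina3k encodes a liver-secreted serpin, Hsd3b5 a male-biased steroid dehydrogenase, C8b a chain of the terminal complement complex and Slco1a1 an organic anion transporter. The 5th, 50th and 95th percentiles over all tested genes were -0.41, 0.01 and 0.40. Hsd3b5 had rho from 0.64 to 0.94 within each of the 4 groups, and Serpina3k from 0.69 to 0.91. The 5 genes with the most negative rho, named after their values were seen, were Cd36 (-0.84), Lgals1 (-0.83), Slc22a27 (-0.83), 2010003K11Rik (-0.80) and Apoc2 (-0.80). Cd36 encodes a fatty acid translocase and Lgals1 the lectin galectin-1.

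**Figure D5:**
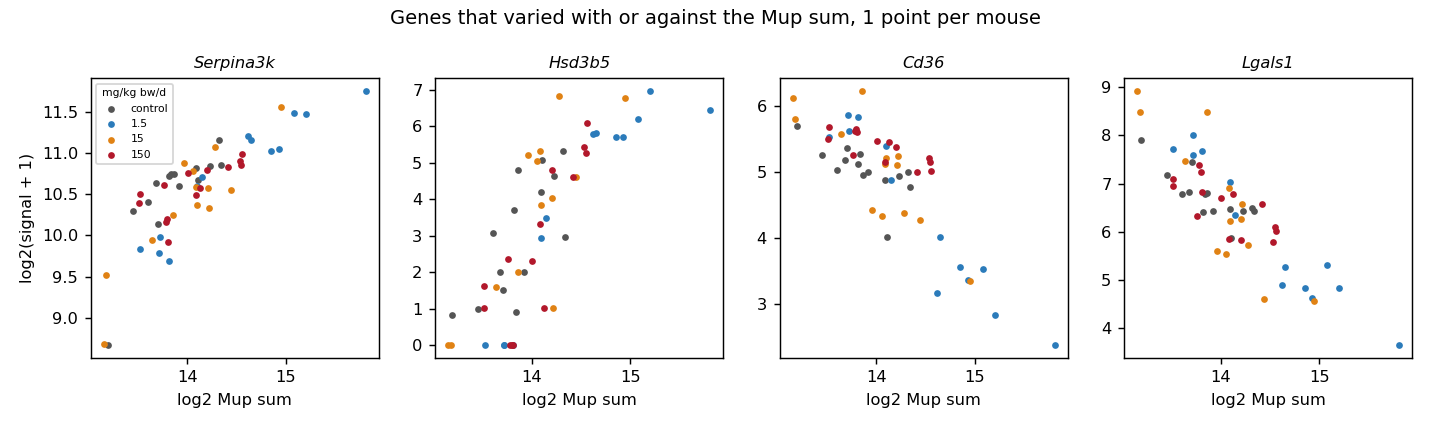
Levels of Serpina3k, Hsd3b5, Cd36 and Lgals1, as log2(signal + 1), against the log2 Mup sum, with 1 point per mouse and colours for the DINP doses in mg/kg bw/d. Serpina3k and Hsd3b5 rise along the axis (rho 0.86 and 0.85) and Cd36 and Lgals1 fall (-0.84 and -0.83), with the mice of all groups along the same trend. These rho values were computed after the group means were subtracted, whereas the points are plotted without that step.

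Lists of genes tied to sex-biased and hormone-driven expression in liver were read in the same way. The 15 male-biased genes had rho with the Mup sum of -0.04 to 0.85 (median 0.72), above 0 in 14. Of these, Hsd3b5, Slco1a1, Cyp7b1 and Egfr were also among the 10 genes with the highest rho above. Of 19 female-biased genes, 14 were in the table and 9 tested, with rho from -0.70 to 0.35 (median -0.51) and above 0 in 2. Cyp2a4, a female-biased steroid hydroxylase, had the lowest (-0.70). In the growth hormone list, where 10 of 11 genes were tested, the median was 0.23, with 0.57 for Igf1, the growth factor, 0.52 for Ghr, the growth hormone receptor, and -0.46 for Stat5a. Among the 7 receptors and factors that act on liver Mup genes, the median was 0.24.

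None of these genes passed the test at the low dose, where 1.2% of all tested genes had an adjusted p under 0.05 and 12.3% an unadjusted one. In limma 0 of 15 male-biased genes had an adjusted p under 0.05, with 4 higher and 0 lower before adjustment and a median log2FC of 0.43. Of the 9 female-biased genes 0 passed, with 0 higher and 2 lower before adjustment (median -0.36), and of the 10 growth hormone genes 0 passed, with 1 higher before adjustment. The 7 receptors and factors had none at either threshold, and 3 of 9 other lipocalins were higher before adjustment and 0 after it. The Wilcoxon test also gave 0 over these lists, whereas scaling to the sum of the non-Mup genes gave 1. Against the controls, Hsd3b5 had a median of 51.0 at this dose and 7.16 in the controls (log2FC 0.77, SE 0.85, adjusted p = 0.78), with an SE larger than the log2FC.

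At the middle dose, where 14.2% of all tested genes had an adjusted p under 0.05, Igf1 was higher (log2FC 0.39, SE 0.08, adjusted p = 0.000867), and so was Ghr (0.27, adjusted p = 0.0244). Nudt7, a male-biased peroxisomal hydrolase of coenzyme A, was higher too (0.83, adjusted p = 0.00249), as was the lipocalin Ambp (0.31, adjusted p = 0.00074), whereas Thra, a thyroid hormone receptor, was lower (-0.57, adjusted p = 5.9e-05). At the high dose, where 2.17% of all tested genes had an adjusted p under 0.05, the male-biased fatty acid hydroxylases Cyp4a12a (1.60, SE 0.26, adjusted p = 5.8e-05) and Cyp4a12b (1.96, adjusted p = 0.00294) were higher. The Mup genes had no DEG at that dose, and the other 13 male-biased genes did not pass the test there. Cyp4a12a and Cyp4a12b are close copies, and their reads may also be divided between them.

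The genes around the Mup cluster had no DEG against control. Within 500 kb of the outermost members on chromosome 4, or between members, 23 other genes were in the table and 16 were tested. Before adjustment, 3, 3 and 4 of them had p under 0.05 at the low, middle and high dose, where 12.3%, 27.0% and 14.0% of all tested genes did. With an adjusted p under 0.05 but a log2FC within 0.5 were Alad, an enzyme of heme synthesis (0.38, adjusted p = 0.00158), and Slc31a1, a copper transporter (0.21, adjusted p = 0.0345), at the middle dose, and Hsdl2, a peroxisomal dehydrogenase-like protein (0.41, adjusted p = 0.000611), at the high dose. Gm12909, the 1 tested gene between members and annotated as antisense, lies beside Mup3 and had a median of 1.72 in the controls, 2.79 at the low dose, 1.02 at the middle and 2.08 at the high dose, with adjusted p = 0.37, 0.37 and 0.22 (limma).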

How the data were processed

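RNA of the medial liver lobe was sequenced from 54 mice. The samples are separate mice, and each was put in its dose group by its label. The authors made QuantSeq 3′ libraries (forward, so that strand is kept) and processed the reads with STAR, RSEM and Salmon on GRCm38. The deposited signal was read as TPM that the authors rounded to whole numbers and multiplied by 1 step per sample (0.764 to 1.11), since 100% of the values were whole multiples within a tolerance of 0.001. No test for counts was run, and depth is not kept.

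The 11431 of 20162 entries whose mean was at least 1 entered limma 3.58.1 in R 4.3.3. A linear model per entry held the 4 groups, on log2(value + 1), with moderation by eBayes (trend) and Benjamini-Hochberg adjustment over all entries. The pipeline was tested on simulated data. Gene positions, coding sequences and the 3′ windows came from the GENCODE annotation and transcripts on GRCm38, and the promoter windows from RefSeq. Coding sequences and promoter windows were aligned with Biopython 1.88. Values are given for members called in any of the 6 contrasts, the 5 with the highest mean, and Mup3, Mup4, Mup5 and Mup20, and from the lists for genes with an adjusted p under 0.05, besides the 10 genes most like the Mup sum. The members and the gene lists were chosen with earlier results of these data known. Replicate numbers did not pair mice across groups (79 pairs, mean correlation -0.0025, 12.7% above 0.1). Alternatives were pseudocounts of 0.1 and 5, other filters, scalings and weights, 2 groups alone, a replicate block, the Wilcoxon test and each mouse left out.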

Additional observations from a re-analysis of the deposited data

How the results depend on the processing

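The 2 members called at the low dose against control were 1 with no filter on low values, where Mup14 had an adjusted p of 0.0536, and 1 to 2 with a mouse left out; every other alternative called the same 2. At the middle dose the 1 member became 2 with no filter and 0 with a minimum mean of 5, with 2 groups alone, with array weights and with the Wilcoxon test (0 to 1 with a mouse left out), and at the high dose it was 0 to 0. Between the middle and the low dose 6 members became 3 with the Wilcoxon test, without Mup16, Mup9 and Mup-ps13 (5 to 9 with a mouse left out). They became 4 with array weights, without Mup9 and Mup-ps13, and 5 with 2 groups alone, without Mup-ps13. With a minimum mean of 5, where Mup22 was not tested, they were also 5. With equal totals or scaled to the non-Mup genes they were 7, with Mup1 added. Between the high and the low dose 1 member became 0 with a pseudocount of 5, no filter or the Wilcoxon test, 2 with quantile normalization, equal totals, 2 groups alone, array weights or without the 3 mice rich in Mup20, and 3 when scaled to the non-Mup genes (0 to 2). The 1 call was Mup-ps19 and not Mup4 with a pseudocount of 0.1 (Mup4 log2FC -2.06, adjusted p = 0.0742), and Mup20 with a minimum mean of 5, where Mup4 was not tested. Between the high and the middle dose 2 members became 1 with no filter or 2 groups alone and 0 with array weights or the Wilcoxon test (0 to 4). Without the 3 mice rich in Mup20, Mup-ps17 lost its call there and Mup3 and Mup10 gained one. The cause of these changes was not tested.

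Over all genes, the counts of 42, 425, 96, 817, 187 and 769 (in the same order) became 23, 190, 48, 441, 86 and 384 with a pseudocount of 5 and 137, 1621, 248, 2449, 527 and 2282 with no log2FC threshold. At the low dose they were 22 with no filter, 76 with 2 groups alone and 70 with array weights. Array weights gave 218, 414 and 491 for the middle dose against control, the low and the high dose, and the Wilcoxon test 202, 503 and 484, besides 120 between the high and the low dose. With a mouse left out the ranges were 22 to 59, 293 to 560, 86 to 106, 648 to 998, 133 to 209 and 614 to 928. The list genes at the low dose were 1 instead of 0 when scaled to the non-Mup genes.

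The replicate numbers did not pair mice, and the fit with a replicate block gave 27 genes instead of 42 at the low dose; among the members Mup4 lost its call between the high and the low dose (log2FC -0.84, adjusted p = 0.0544) and Mup20 gained one, and no other call changed.

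Values near 0 changed sign. For Mup14 at the middle dose log2FC was -0.0882 with quantile normalization, -0.0206 with equal totals and -0.0182 with totals of the non-Mup genes. For Mup3 at the high dose it was -0.11, -0.0825 and -0.0807 with these, -0.14 with array weights and -0.33 without the 3 mice rich in Mup20 (-0.0801 at the low dose). For Mup11 and Mup19 at the middle dose it was -0.0288 and -0.0593 with quantile normalization, and -0.00613 for Mup19 without these mice. Leaving out these mice was chosen after the data were seen. Depth is unknown, so members of a few steps, such as Mup4, Mup8 and Mup22, have no known counting error.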
